A study of Homo sapiens with 12 samples.

Results

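A set of 10 genes was followed in HEK293 cells that carry an inducible RPF-1 transcription factor: FOS, FOSB, FOSL1, FOSL2, JUN, JUNB, JUND, EGR1, ATF3 and IER3. They were chosen among the immediate early and AP-1 genes of the 16578 genes named on the array. All probes that carry these symbols were taken, 11 probes of 22184. HEK293 is a human embryonic kidney cell line. The study had 4 groups of 3 arrays each. RPF1 Tet- cells were stable transfectants with the factor's cDNA in pTRE2puro, a tetracycline-controlled vector, and were kept for 48 h in medium without tetracycline, which induces the factor. RPF1 Tet+ cells were the same transfectants kept for 48 h with tetracycline, so that the factor was not induced. Mock Tet- and Mock Tet+ cells were Mock transfectants kept for 48 h without or with tetracycline. The labels do not say whether the RPF1 transfectants are 1 clone, nor whether the 3 arrays of each group came from independent cultures. The p-values below therefore reflect the spread among these arrays, which may be technical.

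Immediate early genes are transcribed within minutes of a stimulus, without new protein synthesis, when ERK and other kinases act on factors already bound at their promoters. AP-1 is a dimer of a JUN family protein with another JUN protein, a FOS family protein or an ATF protein, and it binds DNA at AP-1 sites and cyclic AMP response elements. FOS proteins cannot form stable dimers with themselves and depend on JUN partners, whereas JUN proteins can pair with each other. EGR1 is a zinc finger factor of the same rapid response, ATF3 is a stress-induced bZIP factor of the ATF family, and IER3 is a short-lived protein linked to survival signalling. FOS and EGR1 messages are usually brief, and both are often used as markers of recent stimulation.

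The promoters of FOS, FOSB and JUN are shown because these are the 3 genes that changed on RPF-1 induction. Each window runs from 250 bases before the gene's start to 50 bases from the start on, was taken from RefSeq (GRCh38.p14), and is written 5′ to 3′ on the gene's own strand. Capitals mark matches on the printed strand to TGACG, the core of the cyclic AMP response element, and to TATAAA, the TATA box.
FOS (chr14:75278578-75278877, plus strand): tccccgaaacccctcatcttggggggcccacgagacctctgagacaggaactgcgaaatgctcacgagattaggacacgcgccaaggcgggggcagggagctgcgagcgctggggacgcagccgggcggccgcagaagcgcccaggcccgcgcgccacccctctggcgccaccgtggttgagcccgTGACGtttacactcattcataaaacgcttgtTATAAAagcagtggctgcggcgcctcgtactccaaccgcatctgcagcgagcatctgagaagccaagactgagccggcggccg
FOSB (chr19:45467746-45468045, plus strand): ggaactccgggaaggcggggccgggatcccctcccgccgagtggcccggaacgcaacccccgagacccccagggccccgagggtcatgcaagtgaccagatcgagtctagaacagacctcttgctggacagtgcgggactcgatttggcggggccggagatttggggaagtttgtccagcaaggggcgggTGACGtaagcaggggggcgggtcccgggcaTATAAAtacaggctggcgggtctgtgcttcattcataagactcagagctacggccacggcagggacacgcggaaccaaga
JUN (chr1:58783998-58784297, minus strand): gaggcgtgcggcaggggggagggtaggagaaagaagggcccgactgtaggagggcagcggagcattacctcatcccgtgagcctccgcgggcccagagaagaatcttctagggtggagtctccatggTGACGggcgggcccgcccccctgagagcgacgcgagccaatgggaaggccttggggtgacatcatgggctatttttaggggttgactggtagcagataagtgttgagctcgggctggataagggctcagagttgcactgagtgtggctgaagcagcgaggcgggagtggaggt
FOS held TGACG at -64 to -60 and TATAAA at -33 to -28 from the start. The FOSB window had nearly the same layout, with TGACG at -60 to -56 and TATAAA at -30 to -25. JUN held TGACG at -123 to -119 and no TATAAA in its window. Over both strands and 35116 promoter windows of the same length, 24.6% hold TGACG, overlapping full sites included, and 11.5% hold TATAAA, so neither match is rare.

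RefSeq windows were found for 8 of the 10 genes, 9 windows in all. Besides FOS, FOSB and JUN, TGACG was found on either strand in EGR1, FOSL2, JUNB and JUND. EGR1 and FOSL2 each had a match at -66 to -62, and JUNB at -137 to -133. TATAAA was also found in JUNB at -31 to -26, and in ATF3 at -230 to -225. These matches were thus not particular to the genes that changed. The CArG box, to which serum response factor binds, was found in EGR1 as CCATATTAGG at -105 to -96 and CCATATATGG at -83 to -74, against 1.29% of all windows with at least 1. The windows reach only 250 bases before the start, so a CArG box farther upstream, in FOS or another gene, would be missed. The EGR site GCGNGGGCG was found in EGR1 at -198 to -190, as GCGCGGGCG, and 9.43% of windows hold it. An AP-1 site, TGANTCA, was found in FOSL2 from 5 to 11 bases into the gene, as TGACTCA, with 7.71% of windows holding it. A full cyclic AMP response element, TGACGTCA, was found in JUND at -200 to -193, with 1.85% of windows holding it. Of the 3 TGACG matches in JUND, both strands counted, those at -200 to -196 and -197 to -193 overlap it, and that at -86 to -82 lies apart. A match is a run of letters and says nothing of whether a factor binds it in these cells.

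Signal was read per probe, corrected for background, normalized between arrays and taken to log2, and is given on that log2 scale below. Between 13568 and 14493 probes were detected per array at a detection p-value under 0.05, and arrays of the same group correlated at 0.989 to 0.996 across features, which are not independent replicates. The precision is limited by the 3 arrays per group. The arrays came from 3 chips. RPF1 Tet- 2 and 3 shared the third chip, Mock Tet+ 1 and 2 shared the first, and the second carried the other 8, with at least 1 array of each group. A fit with chip as a fixed block is called chip-adjusted below, and on the second chip by itself the lone RPF1 Tet- and Mock Tet+ arrays are assumed to vary as the others do. Of the 8 HEK293 markers KRT8, KRT18, VIM, NEFL, NEFM and CDH2 were detected on all 12 arrays, EPCAM on 9 and PAX2 on 0. PTPRC, a blood cell marker, was detected on 9 arrays, and LCP1 on 12, whereas CD3E and CD14 were detected on 0. Of the 3 endothelial markers VWF was detected on 12 arrays, PECAM1 on 2 and CDH5 on 0. The 5 fibroblast markers summed to 1017 to 1298 units of normalized signal in RPF1 Tet- cells and 2095 to 3245 units in RPF1 Tet+ cells, with COL1A2 detected on 0 arrays and DCN on 1. In Mock Tet- and Mock Tet+ cells the same sums were 1964 to 2249 and 2044 to 2258 units. The fibroblast markers did not all move alike. By the limma test described below, 1 of the 3 tested was higher and 2 were lower in RPF1 Tet- than in RPF1 Tet+ cells. Of the 7 HEK293 markers tested in that comparison 5 were called, 2 higher and 3 lower. Over all features 13.4% were called there. The part of these markers in the results below was not tested.

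RPF1 Tet- cells were first set against RPF1 Tet+ cells, which asks what changes when RPF-1 is induced. FOS and FOSB rose, JUN fell, and the other 6 tested genes did not pass the test. A gene was called at a Benjamini-Hochberg adjusted p under 0.05 from a limma fit over all 13228 features. By that rule 3 of the 9 tested genes were called, 2 higher and 1 lower, against 13.4% of all features, 6.67% higher and 6.72% lower. The median change of the 9 was 0.31 on the log2 scale, against -0.01 over all features. In bulk RNA, a change in the number of cells that express a gene and a change in RNA per cell cannot be told apart.

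FOS, the founding FOS family member (NM_005252, probe ILMN_1669523, chr14:75278828-75282230), had 8.66, 8.18 and 8.67 log2 units of signal in RPF1 Tet- 1, 2 and 3, against 5.78, 6.20 and 5.71 in RPF1 Tet+ 1, 2 and 3. The groups did not overlap, as for 29.4% of all features in this comparison, and detection was reached on 3 of 3 RPF1 Tet- arrays, against 0 of 3 RPF1 Tet+ arrays. In unnormalized signal it read 517, 520 and 606 units in RPF1 Tet- cells, against 179, 219 and 182 units in RPF1 Tet+ cells. FOS was at least 5.22-fold higher, the mean of the RPF1 Tet- arrays over, on each RPF1 Tet+ array, the higher of its own value and the lowest signal of a detected probe. The fitted log2 change was 2.61 (SE 0.35, n = 3 per group, limma adjusted p = 0.000519). The chip-adjusted change was 2.77 (SE 0.53, limma adjusted p = 0.0225), the same change as on the second chip by itself, and rests on RPF1 Tet- 1 for the induced cells. The authors' deposited values, which carry no background subtraction, gave a log2 change of 1.37, still called (limma adjusted p = 2.12e-05).

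FOSB, a FOS family member best known from neurons (NM_006732, ILMN_1730706, chr19:45467996-45475179), read 7.36, 6.56 and 6.93 in RPF1 Tet- 1 to 3, against 6.04, 5.71 and 6.06 in RPF1 Tet+ 1 to 3. All 3 induced arrays lay above all 3 uninduced ones, where the probe was detected on 1 array. It rose by 1.01 on the log2 scale (limma SE 0.20, adjusted p = 0.00698), and no fold is given because most RPF1 Tet+ arrays were not above background. The change was 1.42 in the chip-adjusted fit (SE 0.22, limma adjusted p = 0.00818) and 0.44 in the authors' deposited values (limma adjusted p = 0.00625).

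FOSL1, also called FRA1, a FOS relative that depends on sustained ERK signalling (NM_005438, ILMN_1771841, chr11:65892049-65900545), was uneven. It had 8.47, 7.09 and 7.96 log2 units in RPF1 Tet- 1 to 3, against 7.29, 7.75 and 6.13 in RPF1 Tet+ 1 to 3. The groups overlapped, and the difference of 0.79 (SE 0.41, limma adjusted p = 0.245) had a 95% confidence interval of -0.12 to 1.69. The chip-adjusted difference was 1.41 (SE 0.54, limma adjusted p = 0.227), and leaving out single arrays gave 0.32 to 1.16. FOSL2, or FRA2 (NM_005253, ILMN_1725175, chr2:28392858-28417317), lay between 8.18 and 8.39 in RPF1 Tet- cells, against 8.28 to 8.53 in RPF1 Tet+ cells. Its difference was -0.07 with an interval of -0.32 to 0.18. FOS and FOSB thus passed the test in this family, and FOSL1 and FOSL2 did not.

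JUN, the main dimer partner of FOS (NM_002228, ILMN_1669768, chr1:58780791-58784047), read 8.47, 8.16 and 8.50 in RPF1 Tet- 1 to 3, against 9.25, 9.01 and 9.00 in RPF1 Tet+ 1 to 3. All 3 induced arrays lay below all 3 uninduced ones. JUN was 1.63-fold lower, at -0.71 on the log2 scale (limma SE 0.14, adjusted p = 0.00733). That call was lost in the chip-adjusted fit, at -0.61 (SE 0.20, limma adjusted p = 0.156), the same change as on the second chip by itself. It was also lost without the 4 arrays that deviated together, described below, at -0.64 (limma adjusted p = 0.0692).

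JUND, the JUN family member that is present in resting cells (NM_005354, ILMN_1810214, chr19:18279694-18281622), had 14.18, 14.47 and 14.28 log2 units in RPF1 Tet- cells, against 14.50, 14.22 and 14.57 in RPF1 Tet+ cells. The groups overlapped, with a difference of -0.12 and a 95% interval of -0.36 to 0.11, and -0.26 in the chip-adjusted fit (limma adjusted p = 0.488). JUNB (NM_002229, ILMN_1777184, chr19:12791486-12793315), which can restrain JUN, was detected on 0 of the 12 arrays, between 5.11 and 5.96 log2 units, and was not tested. Its probe therefore gave no measure of JUNB in any group.

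EGR1 (NM_001964, ILMN_1762899, chr5:138465479-138469303) read 10.24, 9.44 and 10.20 in RPF1 Tet- 1 to 3, against 9.38, 9.47 and 8.11 in RPF1 Tet+ 1 to 3. RPF1 Tet- 2 lay just below RPF1 Tet+ 2, so the groups overlapped, and the difference of 0.97 (SE 0.59, limma adjusted p = 0.311) had a 95% interval of -0.31 to 2.26. Without the 4 arrays that deviated together the difference was 0.79 (SE 0.15) and passed the test (limma adjusted p = 0.0202). Those arrays also had the largest EGR1 deviation of their groups. Leaving them out narrows the EGR1 spread by that choice, so this pass decides nothing.

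ATF3 had 2 probes, of which ILMN_1661109 (NM_001030287) was detected on 0 of 12 arrays and ILMN_1799748 (NM_001674, chr1:212565407-212620777) on all 12. On the detected probe ATF3 had 13.09, 12.68 and 13.26 log2 units in RPF1 Tet- cells, against 13.16, 13.22 and 12.76 in RPF1 Tet+ cells, a difference of -0.03 with a 95% interval of -0.37 to 0.30. IER3 (NM_003897, ILMN_1682717, chr6:30743199-30744547) had 11.50, 9.91 and 10.79 in RPF1 Tet- cells, against 10.38, 11.17 and 9.73 in RPF1 Tet+ cells. Its difference was 0.31 with an interval of -0.53 to 1.14, and 1.07 in the chip-adjusted fit (SE 0.46, limma adjusted p = 0.289). The arrays of both groups overlapped for both genes, and IER3 spread over more than 1 log2 unit within each group.

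**Figure D1:**
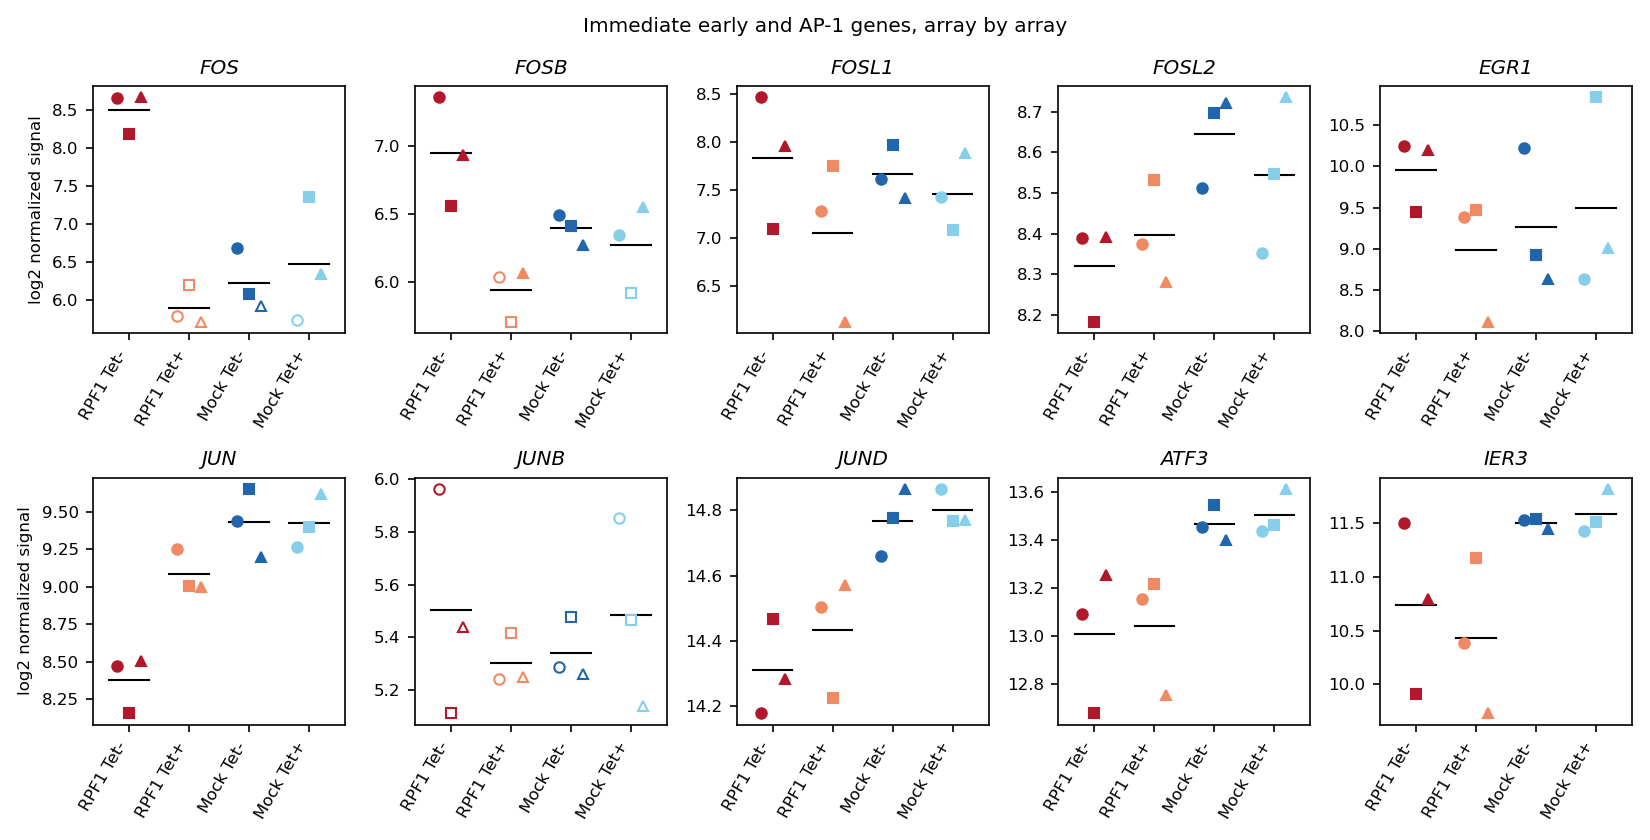
Log2 normalized signal (y axis, each panel on its own scale) of the 10 genes on the 12 arrays, in the groups RPF1 Tet-, RPF1 Tet+, Mock Tet- and Mock Tet+ (x axis). Circles, squares and triangles are replicates 1, 2 and 3, open symbols are arrays on which the probe was not detected, and lines are group means. FOS lay between 8.18 and 8.67 in RPF1 Tet- cells and at 7.36 or below on every other array, JUN was lowest in RPF1 Tet- cells, and JUNB was open on all 12 arrays.

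Mock Tet- cells were compared with Mock Tet+ cells to see what tetracycline removal does without the factor. No difference of any of the 9 tested genes passed the test, and 0 had an unadjusted p under 0.05. With limma 0 of 13228 features were called, 0% of them, while 327 had an unadjusted p under 0.05. FOS had 6.68, 6.08 and 5.92 log2 units in Mock Tet- 1 to 3, against 5.73, 7.36 and 6.34 in Mock Tet+ 1 to 3, a difference of -0.25 (SE 0.35). Mock Tet+ 2 lay above the other arrays of both Mock groups. FOSB had 6.49, 6.41 and 6.27 in Mock Tet- cells, against 6.34, 5.92 and 6.55 in Mock Tet+ cells, and JUN had 9.44, 9.65 and 9.20 in Mock Tet- cells, against 9.26, 9.40 and 9.62 in Mock Tet+ cells. The Mock groups overlapped for all 9 tested genes, while 6.89% of all features had groups that did not. Their differences ran from -0.25 to 0.20, with a median of -0.03.

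The effect of tetracycline removal in the RPF1 line was then tested against that in the Mock line. FOS was the 1 tested gene of 9 whose response differed between the lines, against 5.13% of all features, 2.6% of them with a positive and 2.53% with a negative difference. The FOS difference was 2.86 on the log2 scale (SE 0.49, n = 3 per group, limma adjusted p = 0.00662). The chip-adjusted value was 2.88 (SE 0.75), no longer called (limma adjusted p = 0.152). The second chip by itself, with lone RPF1 Tet- and Mock Tet+ arrays, gave that same value, and only its size is given. For JUN the difference of the effects was -0.71 (SE 0.20, limma adjusted p = 0.0733), and -0.42 in the chip-adjusted fit (limma adjusted p = 0.644). For FOSB it was 0.89 (SE 0.29, limma adjusted p = 0.109). The FOSB value was 1.58 in the chip-adjusted fit (limma adjusted p = 0.0583), and the same in size with the lone arrays of the second chip. It was called at 1.37 without the 4 arrays that deviated together (limma adjusted p = 0.0356). EGR1 gave 1.21 (SE 0.83, limma adjusted p = 0.469). With all 12 arrays and no chip term, none of these 3 passed the test. These contrasts use the same RPF1 arrays as the first comparison, so they are no second measurement of it.

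RPF1 Tet- cells were also set against Mock Tet- cells, both without tetracycline. FOS was again higher, and JUN, JUND and ATF3 were lower. By the test 4 of 9 genes were called, 1 higher and 3 lower, against 31.3% of all features, 15.8% higher and 15.5% lower. The median change of the 9 was -0.32, against -0.00 over all features. FOS differed by 2.28 log2 units (SE 0.35, limma adjusted p = 0.000657), 4.86-fold, with 2 of 3 Mock Tet- arrays detected. JUN differed by -1.05 (SE 0.14, limma adjusted p = 0.000344), 2.07-fold lower, and stayed called at -0.96 in the chip-adjusted fit (limma adjusted p = 0.0197).

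JUND had 14.66, 14.78 and 14.87 in Mock Tet- cells, all above the RPF1 Tet- values given above. It differed by -0.46 (SE 0.11, limma adjusted p = 0.00817), and by -0.59 in the chip-adjusted fit (limma adjusted p = 0.0468). The second chip by itself also gave -0.59, without a call (limma adjusted p = 0.0701). ATF3 had 13.46, 13.55 and 13.40 in Mock Tet- cells, again above every RPF1 Tet- array, and differed by -0.46 (SE 0.15, limma adjusted p = 0.0393). Its call was lost under 12 of 25 other settings, with adjusted p-values of 0.0181 to 0.344. Among the genes not called, FOSB differed by 0.56 (limma adjusted p = 0.0567) and FOSL2 by -0.32 (limma adjusted p = 0.0509), each with groups that did not overlap, as for 45% of all features. FOSB was called under 7 of 25 other settings, among them the chip-adjusted fit, at 0.96 (limma adjusted p = 0.0248), and the replicate block, at 0.56 (limma adjusted p = 0.0269). IER3 had 11.53, 11.53 and 11.44 in Mock Tet- cells and differed by -0.77 (SE 0.38, limma adjusted p = 0.147). The chip-adjusted difference was -5e-04, and RPF1 Tet- 1, the 1 induced array of the second chip, had 11.50. EGR1 differed by 0.70 (SE 0.59, limma adjusted p = 0.391), and by 1.44 (SE 0.15, limma adjusted p = 0.00145) without the 4 arrays that deviated together. Those include its most deviant array of each group, so that pass decides nothing.

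The uninduced RPF1 Tet+ cells were compared with Mock Tet+ cells to see how the lines differed without induction. JUND was lower than in Mock Tet+ cells, and all 9 differences were below 0, with a median of -0.41 against 0.01 over all features. By the test 1 of 9 genes was called, against 15.1% of all features, 7.63% higher and 7.49% lower. JUND had 14.87, 14.77 and 14.77 in Mock Tet+ cells, above the RPF1 Tet+ values, and differed by -0.37 (SE 0.11, limma adjusted p = 0.0413). Its call was lost under 14 of 25 other settings, among them the chip-adjusted fit at -0.34, with adjusted p-values of 0.0188 to 0.29. IER3 had 11.43, 11.51 and 11.82 in Mock Tet+ cells, above all 3 RPF1 Tet+ arrays, and differed by -1.16 (SE 0.38, limma adjusted p = 0.063), which passed under 6 of 25 other settings. ATF3 differed by -0.46 (SE 0.15, limma adjusted p = 0.0633) and JUN by -0.34 (SE 0.14, limma adjusted p = 0.133), both with groups that did not overlap, as for 34.2% of all features. FOS, undetected on the 3 RPF1 Tet+ arrays, was at least 1.28-fold lower against a Mock Tet+ group detected on 2 of 3 arrays, with a difference of -0.58 that did not pass the test (limma adjusted p = 0.295). That bound rested on Mock Tet+ 2 at 7.36, and the difference was -0.14 without that array and -0.0468 without the 4 arrays that deviated together (limma adjusted p = 0.782 and 0.908). EGR1 differed by -0.51 (SE 0.59), and this turned to 0.61 without the 4 arrays that deviated together (limma adjusted p = 0.0428). That pass too followed from leaving out its most deviant array of each group, and decides nothing.

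**Figure D2:**
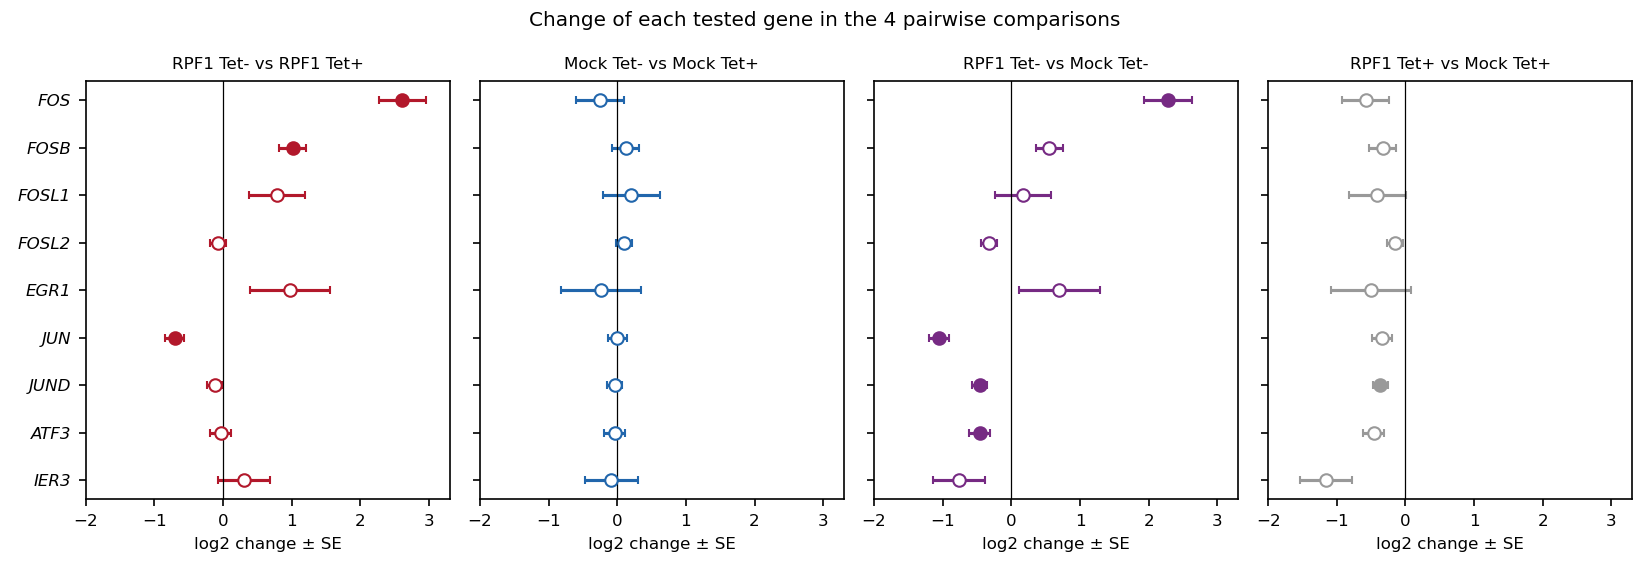
Log2 change with its limma standard error (x axis) of the 9 tested genes (rows) in the 4 pairwise comparisons (panels). Filled points have an adjusted p under 0.05. FOS lay at 2.61 and 2.28 in the panels with RPF1 Tet- cells and near or below 0 in the others, and all 9 points lay left of 0 in RPF1 Tet+ against Mock Tet+.

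Over the 4 groups, FOS was highest in RPF1 Tet- cells at 8.51 ± 0.28, followed by Mock Tet+ cells at 6.48 ± 0.82, Mock Tet- cells at 6.23 ± 0.40 and RPF1 Tet+ cells at 5.89 ± 0.26 (SD, n = 3 each). The last 3 groups overlapped. FOSB had the order RPF1 Tet- cells at 6.95 ± 0.40, Mock Tet- cells at 6.39 ± 0.11, Mock Tet+ cells at 6.27 ± 0.32 and RPF1 Tet+ cells at 5.94 ± 0.20. Here too the last 3 groups overlapped between neighbours. JUN had 9.43 ± 0.23 in Mock Tet- cells, 9.43 ± 0.18 in Mock Tet+ cells, 9.08 ± 0.14 in RPF1 Tet+ cells and 8.38 ± 0.19 in RPF1 Tet- cells, where the Mock groups overlapped, RPF1 Tet+ 1 lay above Mock Tet- 3, and RPF1 Tet- cells lay below every other array.

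The genes also varied between arrays of 1 group. EGR1 had a within-group SD of 0.85 log2 units, the second highest of 13228 features. FOSL1 with 0.60, IER3 with 0.55 and FOS with 0.50 ranked 12, 25 and 40. JUND at 0.13 and FOSL2 at 0.14 were near the middle, at percentiles 40.8 and 45.5 of all features. These are descriptions over 12 arrays, which share preparation, chip and normalization within the study.

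The deviations fell along different lines for different genes. EGR1 and FOS deviated from their group means together over the 12 arrays (r = 0.92), and EGR1 was 1.35 log2 units above its group mean on Mock Tet+ 2 and 0.96 above on Mock Tet- 1, the arrays with the highest FOS of their groups. FOS deviated by 0.88 and 0.45 there. FOSL1 deviated with IER3 (r = 0.92) and with ATF3 (r = 0.88), and IER3 deviated opposite to JUND (r = -0.89). FOS and FOSB, both called in the first comparison, did not deviate together (r = -0.22). FOS was detected on 7 of the 12 arrays and FOSB on 9, so part of their deviations lay at background. The same limit holds for the FOS spread given above.

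A principal component held 39.9% of the within-group variance of all features. Its lowest score in each group was on RPF1 Tet- 2, RPF1 Tet+ 3, Mock Tet- 1 and Mock Tet+ 2, the 4 arrays called here those that deviated together, though 1 such array in each group follows from that choice. FOSL1 (r = 0.92), ATF3 (r = 0.86) and IER3 (r = 0.84) followed the component, whereas EGR1 (r = 0.06) and FOS (r = -0.08) did not. EGR1 still had its largest deviation of each group on the 4 arrays, below the mean on the RPF1 arrays and above it on the Mock arrays. On RPF1 Tet- 2 FOSL1 was 0.75 and IER3 0.82 log2 units below the group mean. RPF1 Tet+ 3 lay 0.93 below for FOSL1 and 0.70 below for IER3. On the Mock arrays of the 4, IER3 lay within 0.08 of its group means.

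**Figure D3:**
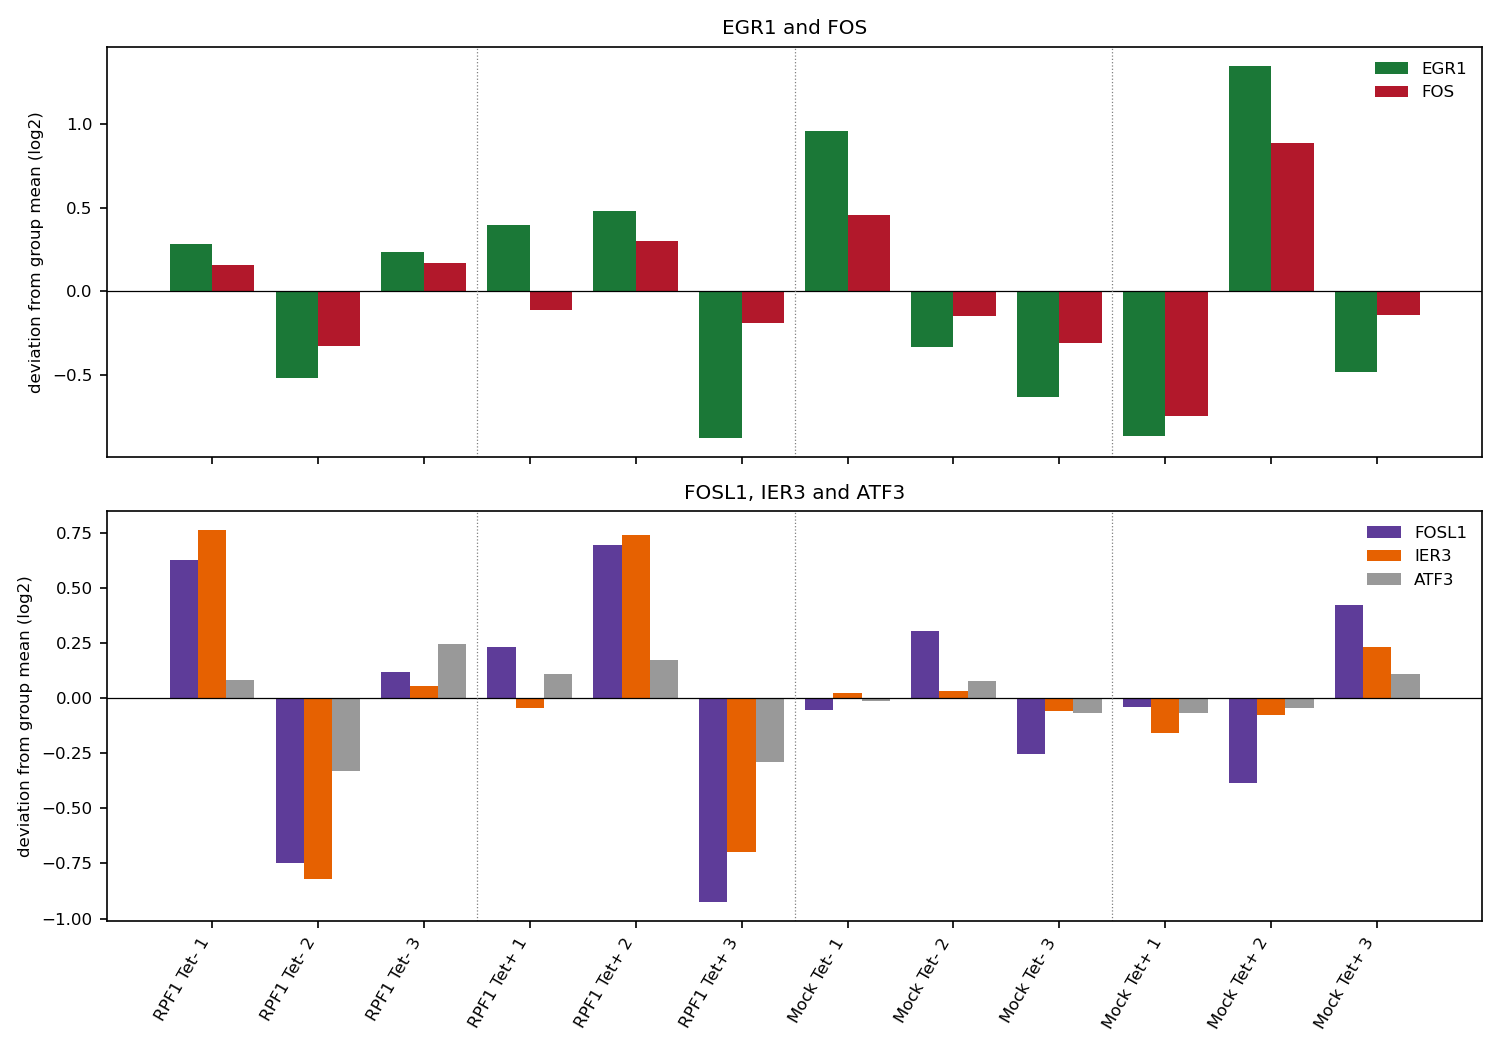
Deviation of each array from its group mean (y axis, log2 units) for EGR1 and FOS (upper panel) and for FOSL1, IER3 and ATF3 (lower panel), with the 12 arrays in group order on the x axis. EGR1 and FOS are both highest on Mock Tet+ 2, at 1.35 and 0.88, while FOSL1 and IER3 are lowest on RPF1 Tet- 2 and RPF1 Tet+ 3.

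Other immediate early, AP-1 and related genes were counted from lists, which can pool genes under different control. Of 38 other immediate early genes 32 were tested, and in RPF1 Tet- against RPF1 Tet+ cells 12 were called, 11 higher and 1 lower, which is 37.5% against the 13.4% of all features. Their median change was 0.21. The count was 5 higher and 0 lower in the chip-adjusted fit and within the second chip, where 421 and 365 of all features were called. The 11 that rose were ARC, KLF4, ZFP36, GADD45B, ID3, NR4A2, IER5, PPP1R15A, ID1, ID2 and KLF2, and PHLDA1 fell. In Mock Tet- against Mock Tet+ cells 0 of 32 were called by limma, and 0 had an unadjusted p under 0.05. Against Mock Tet- cells the induced cells had 11 of the 32 called, 8 higher and 3 lower. That is 34.4% and near the 31.3% of all features, so the larger share depended on the group compared. Between RPF1 Tet+ and Mock Tet+ cells 5 were called, 0 higher and 5 lower, which is 15.6% against 15.1% of all features.

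ARC, a synaptic immediate early gene (ILMN_1711120), had 8.71, 7.92 and 8.92 log2 units in RPF1 Tet- cells, against 5.82, 6.37 and 5.80 in RPF1 Tet+ cells, where it was detected on 1 of 3 arrays. It rose by 2.52 (SE 0.23, limma adjusted p = 3.87e-05), and by 2.71 in the chip-adjusted fit (limma adjusted p = 0.00301). KLF4, a zinc finger factor of growth arrest (ILMN_1779857), had 8.96, 9.26 and 9.29 in RPF1 Tet- cells, against 8.18, 7.87 and 7.61 in RPF1 Tet+ cells, and rose by 1.28 (SE 0.15, limma adjusted p = 0.000199). In both genes every induced array lay above every uninduced one. ZFP36, which destabilizes messages with AU-rich elements (ILMN_1720829), had 9.96, 9.79 and 9.96 in RPF1 Tet- cells, against 8.76, 9.07 and 9.12 in RPF1 Tet+ cells, and rose by 0.92 (SE 0.11, limma adjusted p = 0.000231). GADD45B, a stress sensor (ILMN_1718977), rose by 0.90 (SE 0.20, limma adjusted p = 0.0125), and by 0.9991 in the chip-adjusted fit, where it was not called (limma adjusted p = 0.131). ZFP36 and GADD45B were lower in RPF1 Tet+ than in Mock Tet+ cells, by -0.58 and -0.88 (limma adjusted p = 0.00584 and 0.0146), and against Mock Tet- cells the induced cells were at 0.34 and 4e-04.

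**Figure D4:**
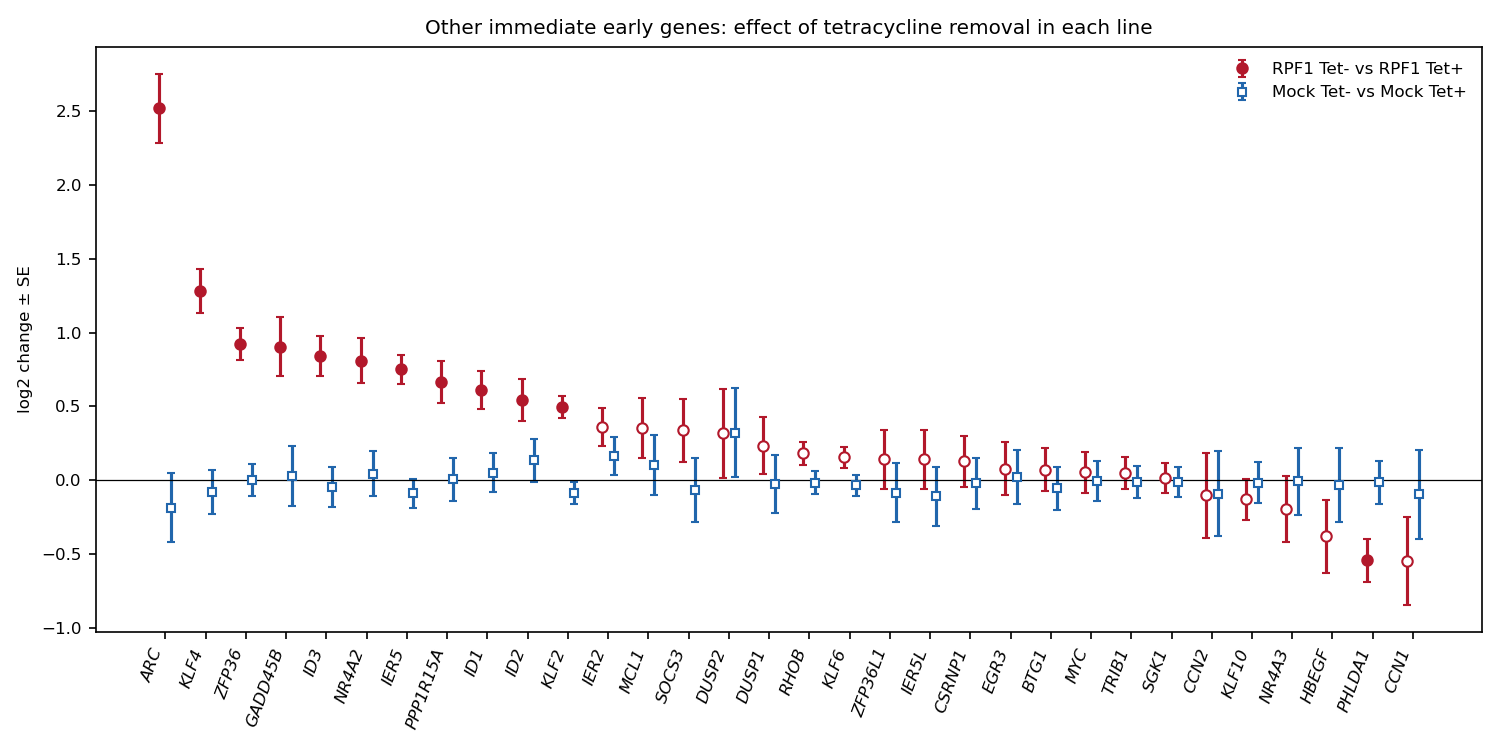
Log2 change with its limma standard error (y axis) of the 32 tested other immediate early genes (x axis), in RPF1 Tet- against RPF1 Tet+ cells (red circles) and in Mock Tet- against Mock Tet+ cells (blue squares). Filled points have an adjusted p under 0.05. ARC lay at 2.52 and KLF4 at 1.28 in the RPF1 line, and no blue point was filled.

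Among other AP-1 family and partner genes 6 of 14 were tested, with a median change of -0.09, and 3 were called in RPF1 Tet- against RPF1 Tet+ cells, which is 50% of a short list against the 13.4% of all features. MAF rose by 0.53 (limma adjusted p = 0.0115), though it was undetected on all RPF1 Tet+ arrays and its bound was only at least 1.01-fold. BATF3, which pairs with JUN proteins, rose by 0.52 (limma adjusted p = 0.0205), and ATF2, a JUN partner, fell by 0.33 (limma adjusted p = 0.0441). The chip-adjusted limma fit called 0 of these 3, at 0.37 for MAF, 0.66 for BATF3 and -0.39 for ATF2, with adjusted p-values of 0.254, 0.113 and 0.166. MAF had 5.98, 6.18 and 6.26 in RPF1 Tet- cells, against 6.24, 6.23 and 6.31 in Mock Tet- cells. BATF3 had 9.79, 9.38 and 9.79 in RPF1 Tet- cells, against 9.26, 9.19 and 9.07 in Mock Tet- cells.

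Of 24 upstream kinases and factors 19 were tested, with a median of -0.03, and 3 were called, which is 15.8% and near the 13.4% of all features. CREM, a cyclic AMP responsive bZIP factor whose short form represses (ILMN_1745318), had 11.03, 11.54 and 11.25 in RPF1 Tet- cells, against 10.05, 10.03 and 10.20 in RPF1 Tet+ cells. It rose by 1.18 (SE 0.18, limma adjusted p = 0.00108) and by 0.94 in the chip-adjusted fit (limma adjusted p = 0.027). MAP2K1, the kinase MEK1, rose by 0.38 (limma adjusted p = 0.0173), and RPS6KA3, the kinase RSK2, fell by 0.47 (limma adjusted p = 0.0338). Neither was called in the chip-adjusted fit, where MAP2K1 was at 0.31 and RPS6KA3 at -0.19 (limma adjusted p = 0.302 and 0.591).

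Classical AP-1 target genes gave 15 tested of 21, a median of -0.11 and 3 calls, which is 20% against the 13.4% of all features. HMOX1, a heme-degrading stress enzyme, rose by 0.60 (limma adjusted p = 0.0205), KRT18, a keratin, by 0.35 (limma adjusted p = 0.0479), and CD44, a hyaluronan receptor, fell by 0.46 (limma adjusted p = 0.0221). In the chip-adjusted limma fit 0 of the 15 were called, and HMOX1 was at 0.43, KRT18 at 0.49 and CD44 at -0.33, with adjusted p-values of 0.356, 0.119 and 0.367. In RPF1 Tet- against Mock Tet- cells 6 of the 15 were called, 3 higher and 3 lower, which is 40% against the 31.3% of all features. HMOX1 had 9.81, 10.14 and 10.00 in RPF1 Tet- cells, against 10.08, 10.55 and 10.24 in Mock Tet- cells. KRT18 had 15.92, 15.57 and 15.87 in RPF1 Tet- cells, against 15.53, 15.51 and 15.53 in Mock Tet- cells.

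By level over the 12 arrays, the genes most like FOS of 11823 others were AEN (r = 0.98), TENT5C (r = 0.97) and FOXF1 (r = 0.97). HLA-B (r = 0.93), RNF149 (r = 0.91) and H2AC8 (r = 0.91) were most like FOSB. GOLIM4, DCUN1D5 and RAN (r = 0.97 each) were most like JUN. For EGR1 it was SKIL (r = 0.97), which also followed its deviations within groups (r = 0.98), and for FOSL1 it was MCL1 (r = 0.97). These correlations describe 12 arrays in 4 groups, and the group differences above are part of them.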

How the data were processed

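Per the labels' protocols, Trizol RNA was cleaned with DNase treatment on RNeasy columns, made into biotinylated cRNA with the Ambion MessageAmp kit and hybridised to Illumina arrays, 3 per group. The submitters' processing notes name BeadStudio, with no version in the sources used here. Per the file headers, the deposited intensity of each probe is unnormalized and stands beside a detection p-value. The deposited detection p-values move in steps that match 708 negative controls. The authors' processed intensity table differed from a quantile normalization without background subtraction by a median of 0.00626%.

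Here intensity was corrected with the normexp model of limma (background inferred from detection p-values, offset 16), taken to log2 and quantile normalized. A probe was kept if detected at p under 0.05 on 3 or more arrays (14752 of 22184), and the brightest probe of each gene symbol was tested, 13228 features in all. A gene with several probes is thus represented by 1. Of all probes 19715 carried 1 symbol and 2469 none. Symbols and coordinates are those of the RefSeq gene table (GRCh38.p14), and no build is named for the probes.

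The limma 3.58.1 model (R 4.3.3) had 1 mean per group and 8 residual degrees of freedom. The Benjamini-Hochberg adjustment ran over all features, and standard errors are those of limma. The code was tested on simulated data. The members, the gene lists and the tests were chosen with earlier results of these data known. Named genes are all 10 members, and for each list up to 4 called genes, those of largest change in RPF1 Tet- against RPF1 Tet+. Other called list genes are named without values. The alternatives used the authors' values, signals with no background correction, scaling by medians, an offset of 50, every probe without a detection filter, all kept probes, probe means, only the arrays compared, chip as a fixed or random block, the second chip, a replicate block and each array left out. Leaving out the 4 arrays that deviated together was added after the data were seen. The transfected factor's own level is not reported here.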

Additional observations from a re-analysis of the deposited data

Results flagged for a closer look

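The effect of tetracycline removal differed between the RPF1 and Mock lines, by a direct limma test, for 5 of the genes named. Over all features 5.13% passed this test. ARC, KLF4, ZFP36 and CREM had been named for their change in RPF1 Tet- against RPF1 Tet+. The same RPF1 arrays enter this test, so it gives those genes no separate support. FOS differed by 2.86 on the log2 scale (SE 0.49, limma adjusted p = 0.00662), from effects of 2.61 in the RPF1 line and -0.25 in the Mock line. ARC differed by 2.71 (SE 0.33, limma adjusted p = 0.000787), with 2.52 in the RPF1 line and -0.19 in the Mock line. KLF4 differed by 1.36 (SE 0.21, limma adjusted p = 0.00354) and ZFP36 by 0.92 (SE 0.15, limma adjusted p = 0.00584). CREM also differed by 1.36 (SE 0.25, limma adjusted p = 0.00936), with 1.18 in the RPF1 line and -0.18 in the Mock line. In the chip-adjusted fit ARC was the 1 of these 5 that stayed past the threshold, at 3.09 (limma adjusted p = 0.0233), while FOS was at 2.88 (limma adjusted p = 0.152), KLF4 at 1.33 (0.0709), ZFP36 at 1.04 (0.0981) and CREM at 0.76 (0.301). Of these 4 differences CREM was the 1 that shrank by over 1.5 times.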

How the results depend on the processing

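FOS and FOSB in RPF1 Tet- against RPF1 Tet+ kept direction and call under all 25 alternatives, and the number of members called there was 2 to 3. Against Mock Tet- it was 3 to 6. In RPF1 Tet+ against Mock Tet+ the count of 1 became 3 with the authors' values and without background correction, 2 with an offset of 50 and without the 4 arrays, and 0 with median scaling, no detection filter, only the arrays compared, either chip setting and the replicate block. It ran from 0 to 3 when single arrays were left out. For the difference of the Tet effects the count of 1 became 0 with chip as a fixed block, 2 on the second chip and without the 4 arrays, and 1 to 2 without single arrays. Replicate numbers did not pair the RPF1 arrays (correlations of deviations 0.25, -0.40 and -0.29), and with a replicate block FOS in RPF1 Tet- against RPF1 Tet+ stayed at 2.61 (limma adjusted p = 0.00201), with 426 in place of 679 features called for the difference of the Tet effects. All features called in RPF1 Tet- against RPF1 Tet+ fell to 972 with only the arrays compared, 421 with chip as a fixed block, 365 on the second chip and 1134 without RPF1 Tet+ 1. Against Mock Tet- they were 1256 and 1118 with the chip settings, in RPF1 Tet+ against Mock Tet+ 296 and 131, and for the difference of the Tet effects 98 and 76.

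Directions turned for genes that were not called, and the cause was not tested. With chip as a fixed block and on the second chip, ATF3 became 0.0504 in RPF1 Tet- against RPF1 Tet+ and FOSL2 0.0858 in the difference of the Tet effects. In Mock Tet- against Mock Tet+ FOSB became -0.16, FOSL1 -0.22, FOSL2 -0.0914, JUN -0.19 and EGR1 0.25. JUN there was -0.0076 with a random chip block, -0.0131 with median scaling and -0.0158 without the 4 arrays, where FOSB was -0.10 and JUND 0.0023. EGR1 in RPF1 Tet+ against Mock Tet+ became 0.61 without the 4 arrays. When single arrays were left out, Mock Tet- against Mock Tet+ ranged from -0.62 to 0.19 for FOS, -0.054 to 0.26 for FOSB, -0.11 to 0.12 for JUN, -0.0842 to 0.0191 for JUND, -0.71 to 0.44 for EGR1, -0.0764 to 0.0187 for ATF3 and -0.16 to 0.032 for IER3. The same ranges were -0.18 to 0.13 for ATF3 and -0.0755 to 0.72 for IER3 in RPF1 Tet- against RPF1 Tet+, -0.14 to 0.17 for ATF3 in the difference of the Tet effects, -0.14 to 0.54 for FOSL1 against Mock Tet-, and -0.76 to 0.0528 for FOSL1 and -0.94 to 0.17 for EGR1 in RPF1 Tet+ against Mock Tet+. FOSB sat near background on most arrays, and FOS on most outside RPF1 Tet- cells, which limits the size of their changes.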
